A study of Mus musculus with 12 samples.

Results

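The comparison set 3 tumour arrays of mice given temozolomide (TMZ) against 3 tumour arrays of mice given a PD-1-blocking antibody (the Anti-PD-1 group), the 2 single agents of the series. Its means drew on these 6 of the 12 arrays, while the spread behind every standard error (SE), interval and p was estimated over all 12. The comparison covered 22180 genes out of the 41345 probe sets. Each gene was read from its brightest probe set among those that name exactly 1 gene symbol. In all groups GL261 glioblastoma cells, a mouse line, had been placed in the brains of male C57BL/6 mice aged 8 weeks, and total RNA came from the tumour mass on day 16. The TMZ group was given 30 mg/kg of TMZ into the peritoneum. The Anti-PD-1 group was given 10 mg/kg of the antibody into a vein, with 2 injections per week. The other groups, 3 arrays each, were the Combination of both agents and the Control; the labels give no dosing days and no description of what the Control mice received. They do not say whether each array came from a separate mouse, so p-values measure only the spread between these arrays, which may be technical.

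TMZ is an alkylating drug that methylates DNA; the lesion at the O6 position of guanine is removed by the enzyme that Mgmt encodes, and if left it is read by mismatch repair, which leads to strand breaks, cell cycle arrest and death. PD-1, encoded by Pdcd1, is an inhibitory receptor of activated T cells, and its ligand PD-L1, encoded by Cd274, is induced by interferon gamma on tumour and myeloid cells. An antibody against PD-1 lifts that inhibition, and T cells that recognise their target then release interferon gamma, which switches on guanylate-binding proteins, immunity-related GTPases and antigen presentation genes in the cells around them. The direct comparison asks where tumours under the 2 drugs differed in expression, with no Control array in either mean.

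Not a single gene passed the threshold. The linear model of limma, with Benjamini-Hochberg adjustment over all genes, called 0 of 22180 genes (0%), and its smallest adjusted p was 1.0. An unadjusted p under 0.05 was reached by 1000 genes (4.51%), 469 of them with TMZ higher (2.11%) and 531 with TMZ lower (2.39%). The 3 TMZ arrays lay wholly above the 3 Anti-PD-1 arrays for 972 genes (4.38%) and wholly below them for 974 genes (4.39%). A difference above 0 (TMZ minus Anti-PD-1, as throughout) was found in 49.5% of genes. These shares over all genes are the background for every count of list members below. The median difference over all genes was -0.00093 log2 and the quartiles were -0.06 and 0.06. Genes with an unadjusted p under 0.05 were dim: their median level was 4.46 log2, against 5.72 for the median gene, and 76.2% of them lay below it.

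The data bound most differences in array signal closely, with no filter on dim genes. The 95% interval of the difference, which is not adjusted for the number of genes, lay within 1 log2 unit of 0 (2-fold either way) for 22086 genes (99.6%), and the median distance from a difference to its bound was 0.203. The size of a difference reached 0.5 log2 for 78 genes, 51 with TMZ higher and 27 with TMZ lower, and 1 log2 for 7 genes, all with TMZ higher. These 7 were the interferon-inducible GTPase genes Gbp4, Igtp and Iigp1, the pituitary hormone genes Gh, Prl and Pomc, and the apolipoprotein L family gene Apol11b, of which Igtp, Iigp1 and Apol11b were chosen after their values were seen. A gene that missed the threshold is not thereby shown to be equal under both drugs, so intervals are given below beside the differences.

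**Figure D1:**
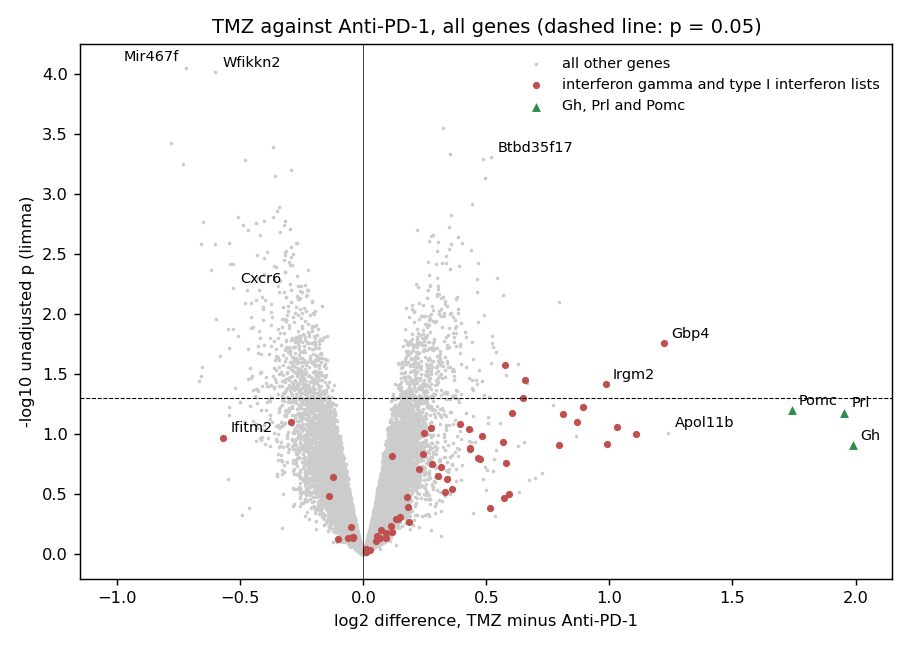
Each point is 1 of 22180 genes, with the log2 difference (TMZ minus Anti-PD-1) on the horizontal axis and -log10 of the unadjusted limma p on the vertical axis; red points are the interferon gamma and type I interferon lists, and green triangles the hormone genes Gh, Prl and Pomc. Most interferon genes lie to the right of 0, and no gene passed the adjusted threshold.

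Single arrays stood apart within both groups, and many but not all of the results that rest on them are also given without them. In a principal component analysis of the 6 arrays, the first component (26.7% of the variance) ran from TMZ replicate 1 at -14.7 to Anti-PD-1 replicate 1 at 19.6. The second (23.2%) set TMZ replicate 2, at 21.7, apart from all others. TMZ replicate 2 lay at least 1 log2 unit above the median of the other 11 arrays for 16 genes and below it for 19, Anti-PD-1 replicate 1 above for 2 and below for 40, and Anti-PD-1 replicate 2 above for 6 and below for 20. Brain markers were bright: neuron markers averaged 9.78 log2, oligodendrocyte markers 8.45 and astrocyte markers 8.87 over the 12 arrays, while glioma and neural progenitor markers averaged 6.81. Probe sets differ in how brightly they bind, so these levels do not give the share of tumour in a sample.

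Interferon gamma targets and the inducible GTPases had the largest median difference among 37 gene lists, but not under every alternative. Without TMZ replicate 1 their median and that of the 5 blood cell genes were both 0.25, and with the neuron covariate described below theirs was 0.14, against 0.22 for the blood cell genes. Guanylate-binding proteins (Gbp genes) and immunity-related GTPases (Irgm1, Irgm2, Igtp, Iigp1) are interferon-induced GTPases that attack the vacuoles of intracellular microbes, and they serve as readouts of interferon gamma in tissue. Of 23 measured members 19 had a difference above 0 (82.6%, against 49.5% of all genes), with a median of 0.52 log2 against -0.00093 for all genes. None passed the adjusted threshold; 4 had an unadjusted p under 0.05 with TMZ higher (Gbp3, Gbp4, Gbp7 and Irgm2, against 2.11% of all genes), and 3 did not overlap (Gbp4, Gbp5 and Ciita, against 4.38%). In bulk tissue, fewer cells that express a gene and less RNA per cell cannot be told apart.

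Promoter sequence was read for these genes because the classical switch for them is a short element just before the start site. The interferon-stimulated response element was searched on both strands as GAAA, any 2 bases and GAAA, and the gamma-activated site as TTC, any 3 bases and GAA, in the 250 bases before each start in RefSeq (GRCm38.p6); the patterns can overlap each other. Of 23 measured list members 10 had a window, and 8 of these genes (80%) held the response element, against 3.46% of 27025 genes with a window (2.98% of 32851 windows). The gamma-activated site was found in 5 of the 10, against 8.13% of all. Among mitosis genes, 3 of 40 held the response element (7.5%) and 1 of 40 the gamma-activated site (2.5%). A match is a description of letters, not a bound site. The stretches below are those of list members described here, written 5′ to 3′ on the gene's strand with 25 bases on either side where the window allows and with the response element (or its reverse complement) in capitals.
Gbp3, chr3:142559974-142560033, plus strand: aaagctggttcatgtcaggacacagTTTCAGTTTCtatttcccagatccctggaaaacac
Gbp5, chr3:142496744-142496803, plus strand: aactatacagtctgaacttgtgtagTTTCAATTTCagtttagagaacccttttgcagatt
Gbp7, chr3:142530258-142530317, plus strand: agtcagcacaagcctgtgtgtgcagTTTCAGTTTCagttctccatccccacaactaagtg
Igtp, chr11:58199497-58199555, plus strand: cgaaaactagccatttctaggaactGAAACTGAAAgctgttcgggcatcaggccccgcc
Irgm2, chr11:58214888-58214947, plus strand: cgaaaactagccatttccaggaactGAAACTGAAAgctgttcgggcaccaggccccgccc
The Igtp and Irgm2 stretches are nearly letter for letter the same. The Gbp and Irg families hold close copies, and probes shared between copies could carry signal from one to another.

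Gbp4 had the largest difference of the list. Its log2 signal was 5.68, 5.62 and 5.14 in TMZ arrays (replicates 1, 2 and 3, the order used throughout), against 3.30, 4.74 and 4.74 in Anti-PD-1 arrays. The groups did not overlap, and Anti-PD-1 replicate 1 lay far below the rest. The difference was 1.22 ± 0.44 log2 (SE; 95% interval 0.26 to 2.19; 2.34-fold), with a limma adjusted p of 1.0, and it was 0.74 without Anti-PD-1 replicate 1. Combination and Control arrays averaged 5.33 and 5.43.

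Gbp5, which also helps assemble the NLRP3 inflammasome, had 5.33, 4.78 and 4.70 in TMZ arrays against 3.86, 3.86 and 4.64 in Anti-PD-1 arrays. The third Anti-PD-1 array nearly touched the TMZ range, and the difference was 0.81 ± 0.40 (interval -0.07 to 1.69). Gbp3 had 6.15, 5.22 and 5.56 in TMZ arrays against 4.61, 4.85 and 5.52 in Anti-PD-1 arrays, and Gbp7 had 7.36, 6.80 and 7.28 in TMZ arrays against 5.99, 6.51 and 6.98 in Anti-PD-1 arrays. Both pairs of groups overlapped, because Anti-PD-1 replicate 3 was above TMZ replicate 2; the differences were 0.65 ± 0.30 (interval 0.00 to 1.30) and 0.66 ± 0.28 (interval 0.05 to 1.26).

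The immunity-related GTPases were higher in TMZ replicates 1 and 3 than in replicate 2. Irgm2 had 6.98, 5.91 and 6.78 in TMZ arrays against 5.13, 5.40 and 6.19 in Anti-PD-1 arrays, a difference of 0.99 ± 0.42 (interval 0.06 to 1.91). Igtp had 7.71, 5.76 and 7.16 in TMZ arrays against 4.50, 5.98 and 6.82 in Anti-PD-1 arrays, and Iigp1 had 7.41, 5.88 and 6.64 in TMZ arrays against 4.72, 5.54 and 6.57 in Anti-PD-1 arrays. In all of them TMZ replicate 2 was the lowest TMZ array and fell inside the Anti-PD-1 range. The differences of Igtp and Iigp1 were 1.11 ± 0.62 and 1.03 ± 0.55; without Anti-PD-1 replicate 1 they were 0.47 and 0.59, and without TMZ replicate 2 they were 1.66 and 1.41. Gbp6 went the other way, at 2.94, 2.79 and 2.60 in TMZ arrays against 3.10, 3.22 and 2.89 in Anti-PD-1 arrays (-0.29 ± 0.15).

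**Figure D2:**
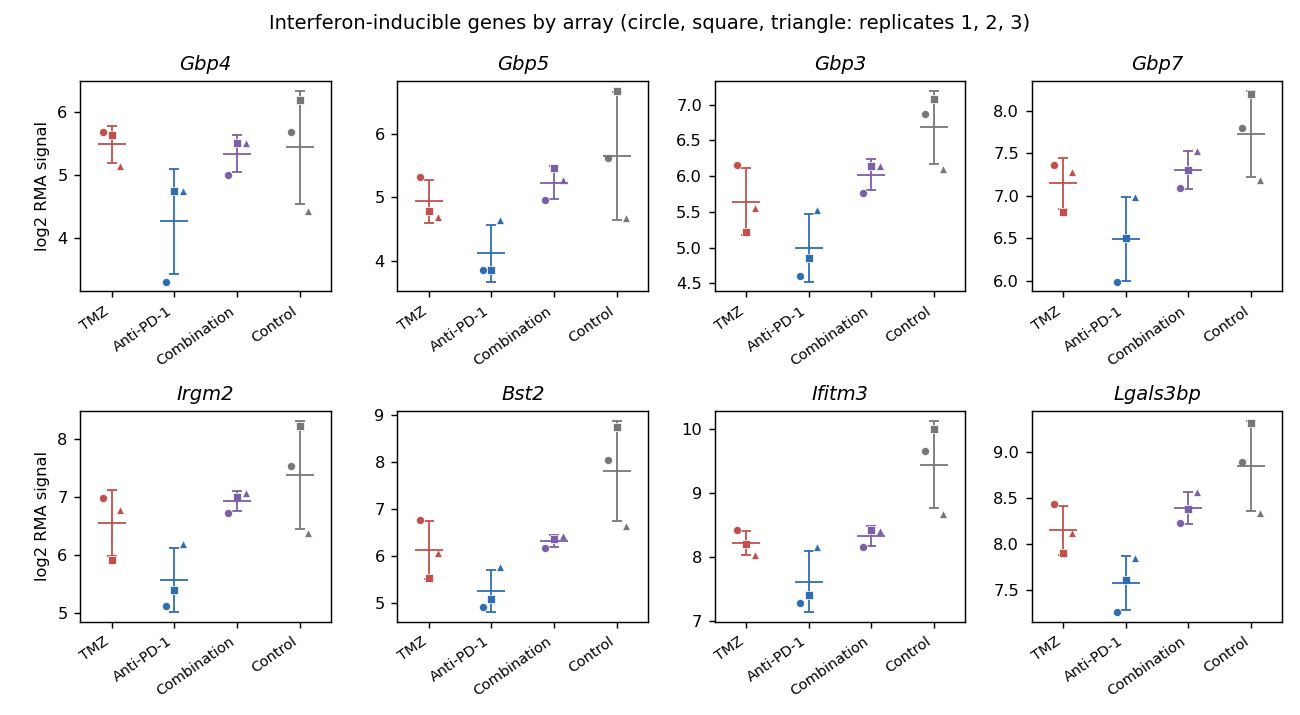
Log2 signal of 8 interferon-inducible genes on each array, by group; bars give the mean and SD of 3 arrays and symbols the replicates. For Gbp4, Gbp5 and Lgals3bp all TMZ arrays lie above all Anti-PD-1 arrays, while for the others Anti-PD-1 replicate 3 reaches into the TMZ range.

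The list score, the mean over members of the log2 value minus each gene's mean over 12 arrays, showed how the arrays lay. It was 0.33, -0.49 and -0.20 in TMZ arrays against -0.96, -0.62 and -0.22 in Anti-PD-1 arrays, so the groups overlapped. Combination arrays had scores of -0.08, 0.34 and 0.30, and Control arrays 0.67, 1.06 and -0.12, so arrays of 1 group differed widely. The list median of 0.52 was 0.25 without TMZ replicate 1, 0.83 without TMZ replicate 2 and 0.34 without Anti-PD-1 replicate 1. With the neuron list score of each array as a covariate it was 0.14. Neuron scores were -0.00, 0.01 and 0.03 in TMZ arrays against 0.02, 0.07 and 0.04 in Anti-PD-1 arrays, and the part of brain content in the difference was not tested further. The transcript of interferon gamma itself, Ifng, was at 4.45, 4.41 and 4.58 in TMZ arrays against 4.43, 4.64 and 4.32 in Anti-PD-1 arrays (0.02 ± 0.08, interval -0.16 to 0.20).

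Type I interferon genes, which code for antiviral proteins, lay the same way by less. Of 42 measured members 36 had a difference above 0 (85.7%, against 49.5% of all genes), the median was 0.18 and 0 were called. With TMZ higher, 1 had an unadjusted p under 0.05 (Lgals3bp, against 2.11% of all genes) and 2 did not overlap (Lgals3bp and Ifit2, against 4.38%). Both of these counts lay near the shares over all genes. Lgals3bp, a secreted protein that binds galectin-3, had 8.43, 7.90 and 8.12 in TMZ arrays against 7.26, 7.61 and 7.84 in Anti-PD-1 arrays. Every TMZ array was above every Anti-PD-1 array, by a margin small against their spread, and the difference was 0.58 ± 0.23 (interval 0.08 to 1.07).

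Bst2, the gene of tetherin, which holds budding viruses at the cell surface, had 6.77, 5.53 and 6.07 in TMZ arrays against 4.92, 5.08 and 5.76 in Anti-PD-1 arrays (0.87 ± 0.45, interval -0.11 to 1.85). The difference was 0.55 without TMZ replicate 1 and 1.17 without TMZ replicate 2. The Bst2 promoter held overlapping response elements, of which one is shown in capitals because tetherin had one of the larger differences. All promoter stretches printed here are from genes with TMZ higher.
Bst2, chr8:71537562-71537621, minus strand: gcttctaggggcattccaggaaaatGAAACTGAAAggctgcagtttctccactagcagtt
Oasl2, an oligoadenylate synthetase-like gene, had 7.25, 6.05 and 6.77 in TMZ arrays against 5.03, 5.80 and 6.56 in Anti-PD-1 arrays (0.89 ± 0.43). Its difference was 0.51 without Anti-PD-1 replicate 1 and 1.27 without Anti-PD-1 replicate 3. Ifitm3, which blocks virus entry, had 8.42, 8.21 and 8.04 in TMZ arrays against 7.28, 7.41 and 8.16 in Anti-PD-1 arrays (0.60 ± 0.30). For both genes Anti-PD-1 replicate 3 lay among the TMZ arrays. Its family member Ifitm2 lay in the opposite direction, at 4.18, 4.83 and 4.09 in TMZ arrays against 4.88, 5.22 and 4.71 in Anti-PD-1 arrays (-0.57 ± 0.33, interval -1.28 to 0.14). Sp110, a nuclear body gene outside the list that was named by its lack of overlap, had 6.26, 5.62 and 5.54 in TMZ arrays against 4.63, 5.22 and 5.27 in Anti-PD-1 arrays (0.77 ± 0.36). The type I list median was 0.08 without TMZ replicate 1, 0.29 without TMZ replicate 2 and 0.03 with the neuron covariate. The response element was in 10 of 31 genes with a window (32.3%). Ifitm2, lower in TMZ arrays (-0.57), held it too. So did Trim30a (-0.10) and, in the interferon gamma list, Socs1 (-0.04), both chosen after their values were seen.

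Antigen presentation genes of MHC class I had 17 of 19 members with a difference above 0 (89.5%) and a median of 0.19. An unadjusted p under 0.05 was reached by 0 members, against 4.51% of all genes. H2-K1, a class I heavy chain, had 7.83, 6.81 and 7.33 in TMZ arrays against 5.96, 7.03 and 7.01 in Anti-PD-1 arrays (0.65 ± 0.38, interval -0.19 to 1.49). Its difference was 0.30 without Anti-PD-1 replicate 1 and 0.91 without TMZ replicate 2. Nlrc5, the transactivator of class I genes, had a difference of 0.43 ± 0.27 and the nonclassical heavy chain gene H2-T23 one of 0.40 ± 0.23. The proteasome genes Psmb10 (0.12) and Psme1 (0.14) were the 2 members without overlap, against 4.38% of all genes wholly above. The median was 0.11 without TMZ replicate 1 and 0.08 with the neuron covariate.

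Among the class II genes, which display antigen to helper T cells, H2-Aa and H2-Ab1 split by array rather than by drug. H2-Aa, chosen after its values were seen, had 7.49, 4.59 and 6.70 in TMZ arrays against 4.34, 6.42 and 7.07 in Anti-PD-1 arrays, and H2-Ab1 had 8.89, 6.32 and 8.29 in TMZ arrays against 5.85, 7.54 and 8.50 in Anti-PD-1 arrays. TMZ replicate 2 and Anti-PD-1 replicate 1 were the low arrays for both genes. The differences of 0.32 ± 0.80 (interval -1.44 to 2.07) and 0.53 ± 0.73 (interval -1.07 to 2.13) had some of the widest intervals in the data, and both turned negative without Anti-PD-1 replicate 1 (-0.49 and -0.19). Without TMZ replicate 2 they were 1.15 and 1.29. Of 17 class II members 12 lay above 0 (70.6%), with a median of 0.07. H2-DMb1, a peptide exchange chain, was at 3.34, 3.52 and 3.59 in TMZ arrays against 3.71, 3.66 and 3.71 in Anti-PD-1 arrays (-0.21 ± 0.07). It lay wholly below in TMZ arrays (against 4.39% of all genes), and Ciita (0.12 ± 0.07) wholly above (against 4.38%).

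**Figure D3:**
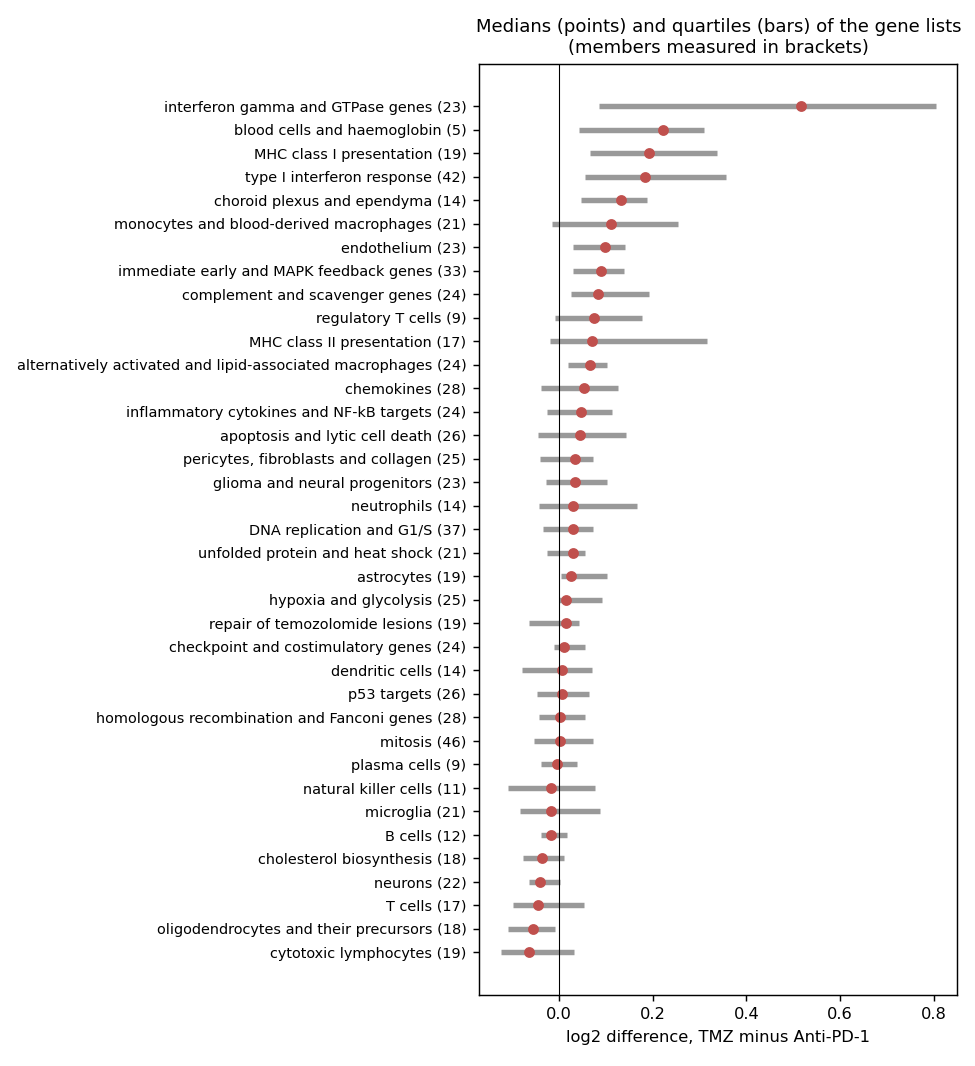
Median log2 difference (TMZ minus Anti-PD-1) of the members of each of 37 gene lists as points, with the quartiles of the members as bars. The interferon gamma list stands at 0.52, 5 further lists lie at or above 0.1, and the other 31 lie within 0.1 of 0.

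The antibody's own target and the T cell compartment were measured at low signal and lay close together. Pdcd1 had 4.34, 3.86 and 4.50 in TMZ arrays against 4.10, 4.15 and 4.44 in Anti-PD-1 arrays, a difference of 0.01 ± 0.17 (interval -0.37 to 0.38). Cd274, the gene of PD-L1, had 6.76, 5.95 and 6.71 in TMZ arrays against 5.88, 5.92 and 6.31 in Anti-PD-1 arrays. Its TMZ replicate 2 lay with the Anti-PD-1 arrays, and the difference was 0.44 ± 0.26 (interval -0.13 to 0.999), or 0.70 without that array. Checkpoint and costimulatory genes as a list had 15 of 24 members above 0 (62.5%) and a median of 0.01, with all 24 intervals within 1 log2 unit of 0. Cd96, an inhibitory receptor of T and NK cells, was at 3.67, 3.49 and 3.57 in TMZ arrays against 3.78, 3.84 and 3.88 in Anti-PD-1 arrays (-0.26 ± 0.10).

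T cell markers had 7 of 17 members above 0 (41.2%) and a median of -0.04, and every one of their intervals lay within 1 log2 unit of 0. Of these members 0 lay without overlap, against 4.38% of all genes wholly above and 4.39% wholly below. Cd8a, of the coreceptor on cytotoxic T cells, had 3.99, 4.21 and 4.08 in TMZ arrays against 4.12, 4.17 and 4.42 in Anti-PD-1 arrays (-0.14 ± 0.10, interval -0.36 to 0.08). Cytotoxic lymphocyte genes had a median of -0.06 and 8 of 19 members above 0. Gzmb, the killing protease granzyme B, had 4.21, 3.97 and 3.71 in TMZ arrays against 3.70, 4.18 and 4.14 in Anti-PD-1 arrays (-0.05 ± 0.23, interval -0.54 to 0.45).

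Cxcr6, a chemokine receptor of tissue-resident T cells, was the 1 of 19 cytotoxic list members without overlap, against 4.39% of all genes wholly below. It had 2.91, 3.09 and 3.60 in TMZ arrays against 3.82, 3.71 and 3.65 in Anti-PD-1 arrays. The third TMZ array nearly met the lowest Anti-PD-1 array. The difference was -0.53 ± 0.16 (interval -0.88 to -0.18), with a limma adjusted p of 1.0. Ccl5, a T cell attractant that cytotoxic lymphocytes secrete, spread widely, at 7.74, 6.12 and 6.70 in TMZ arrays against 6.06, 7.91 and 7.97 in Anti-PD-1 arrays (-0.46 ± 0.54, interval -1.64 to 0.71). Its high and low arrays were mixed across the drugs.

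Regulatory T cell genes had a median of 0.07, which was -0.03 without Anti-PD-1 replicate 3, and Foxp3, their master regulator, had 4.97, 4.995 and 4.36 in TMZ arrays against 4.65, 4.67 and 4.34 in Anti-PD-1 arrays (0.22 ± 0.17, interval -0.15 to 0.59). Natural killer cell genes had 5 of 11 members above 0 and a median of -0.02. Klra9, a receptor of the Ly49 family of close copies, had 2.03, 2.20 and 2.21 in TMZ arrays against 2.41, 2.57 and 2.44 in Anti-PD-1 arrays (-0.33 ± 0.11). B cell and plasma cell lists had medians of -0.02 and -0.01.

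Among myeloid lists, monocyte and blood-derived macrophage genes had 15 of 21 members above 0 (71.4%) and a median of 0.11. An unadjusted p under 0.05 with TMZ higher was reached by 3 members, against 2.11% of all genes. The median was 0.05 without TMZ replicate 2 or without Anti-PD-1 replicate 2, 0.18 without Anti-PD-1 replicate 3 and 0.02 with the neuron covariate. The 3 members were Ccr2, the receptor that draws monocytes from blood (0.17 ± 0.07), Plac8 (0.28 ± 0.10) and the mannose receptor gene Mrc1 (0.26 ± 0.10). Plac8 had 4.32, 4.19 and 4.21 in TMZ arrays against 4.03, 3.82 and 4.02 in Anti-PD-1 arrays. It and F13a1 (0.12) were the members without overlap, against 4.38% of all genes wholly above. Lyz2, lysozyme of macrophages, had 7.90, 6.97 and 6.93 in TMZ arrays against 6.23, 6.81 and 7.13 in Anti-PD-1 arrays (0.54 ± 0.34), which was 0.22 without TMZ replicate 1 and 0.30 without Anti-PD-1 replicate 1.

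Alternatively activated and lipid-associated macrophage genes had 19 of 24 members above 0 (79.2%) but a median of 0.07, and -0.00 without TMZ replicate 1. Gpnmb, a glycoprotein of lipid-laden macrophages, had 7.23, 5.55 and 6.07 in TMZ arrays against 5.09, 5.82 and 5.75 in Anti-PD-1 arrays. The groups overlapped through TMZ replicate 2, and the difference was 0.73 ± 0.55 (interval -0.47 to 1.92), and it was 0.25 without TMZ replicate 1, 1.09 without TMZ replicate 2 and 0.22 with the neuron covariate. Complement and scavenger genes had 19 of 24 members above 0 and a median of 0.08, which was 0.0048 without TMZ replicate 1, 0.014 without Anti-PD-1 replicate 1, 0.18 without TMZ replicate 2 and -0.03 with the neuron covariate. Marco, a scavenger receptor, was tight in both groups, at 4.50, 4.47 and 4.54 in TMZ arrays against 4.29, 4.23 and 4.33 in Anti-PD-1 arrays (0.22 ± 0.06, interval 0.10 to 0.34).

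Microglia markers had 9 of 21 members above 0 and a median of -0.02, with all 21 intervals within 1 log2 unit of 0. P2ry12, the purine receptor of resting microglia, had 7.67, 7.32 and 7.49 in TMZ arrays against 7.57, 7.53 and 7.60 in Anti-PD-1 arrays (-0.07 ± 0.09, interval -0.27 to 0.13). Tmem119 (-0.14 ± 0.06) and Mertk (-0.10) lay below without overlap, and Crybb1 (0.16 ± 0.10) above. These were 2 and 1 of 21 members, against 4.39% and 4.38% of all genes. Neutrophil genes had a median of 0.03; Mpo, of neutrophil granules, had 4.39, 4.31 and 4.74 in TMZ arrays against 5.03, 4.69 and 4.64 in Anti-PD-1 arrays (-0.30 ± 0.12). Dendritic cell genes had a median of 0.01.

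Chemokines had 19 of 28 members above 0 (67.9%) and a median of 0.05. Cxcl9, an interferon gamma target that attracts T cells, had 7.36, 5.60 and 6.24 in TMZ arrays against 5.10, 5.67 and 6.66 in Anti-PD-1 arrays (0.59 ± 0.56, interval -0.63 to 1.82). Its difference was 0.11 without TMZ replicate 1, 0.24 without Anti-PD-1 replicate 1, 1.02 without Anti-PD-1 replicate 3 and 0.13 with the neuron covariate. Ccl24 (-0.27 ± 0.12) and Ccl25 (0.17 ± 0.08) had unadjusted p-values under 0.05 in opposite directions. Inflammatory cytokine and NF-kB genes had a median of 0.05, and 3 of 24 did not overlap, all with TMZ higher (against 4.38% of all genes). These were the lymphocyte survival cytokine gene Il15, at 4.87, 4.69 and 4.54 in TMZ arrays against 4.28, 4.27 and 4.53 in Anti-PD-1 arrays (0.34 ± 0.13), the NF-kB inhibitor gene Tnfaip3 (0.22 ± 0.09) and Traf1 (0.17 ± 0.08).

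**Figure D4:**
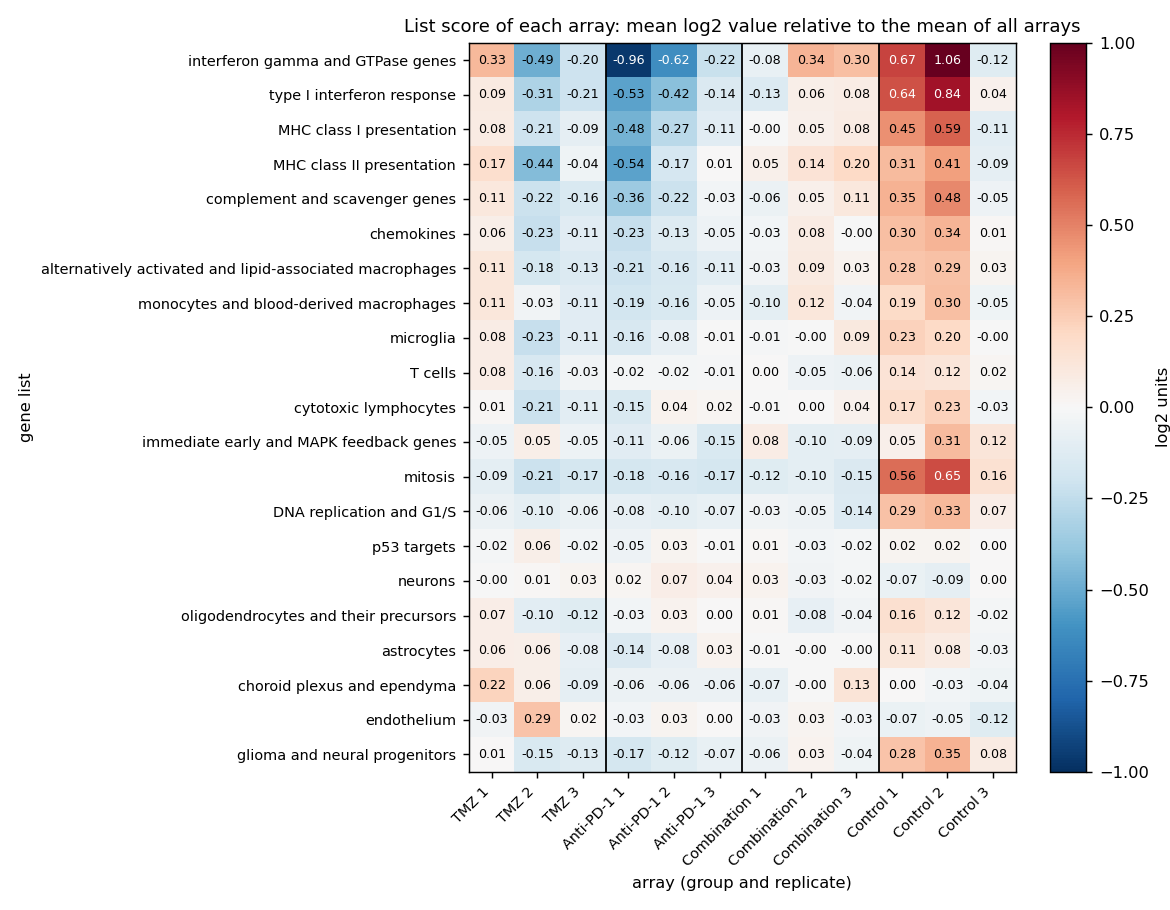
Score of 21 gene lists on each of 12 arrays, as colour and number in log2 units (red above and blue below the mean of all arrays), with TMZ, Anti-PD-1, Combination and Control arrays from left to right. The interferon gamma, type I interferon and MHC class I scores are lowest on Anti-PD-1 replicates 1 and 2 and next lowest on TMZ replicate 2, while mitosis scores lie between -0.21 and -0.09 on all TMZ and Anti-PD-1 arrays.

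Genes tied to the action of TMZ showed little difference between the drugs. Mgmt, whose enzyme removes the methyl group from guanine, had 4.99, 4.71 and 4.86 in TMZ arrays against 4.81, 4.99 and 4.95 in Anti-PD-1 arrays (-0.06 ± 0.10, interval -0.27 to 0.15). The list of repair genes for TMZ lesions had 11 of 19 members above 0 and a median of 0.02. Its mismatch repair members without overlap, Pms1 (0.06 ± 0.05) and Pms2 (-0.09 ± 0.09), lay in opposite directions by less than 0.1. Thus 1 of 19 members lay wholly above and 1 wholly below, against 4.38% and 4.39% of all genes. Homologous recombination and Fanconi genes had 15 of 28 members above 0 and a median of 0.00, with Fance at 0.22 ± 0.12 and Bard1 at -0.26 ± 0.13 at the ends. Every interval in both repair lists lay within 1 log2 unit of 0.

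Of the p53 targets 14 of 26 lay above 0 and the median was 0.01. Cdkn1a, which encodes the cell cycle inhibitor p21, had 7.70, 7.90 and 7.72 in TMZ arrays against 7.49, 7.67 and 7.48 in Anti-PD-1 arrays. The groups did not overlap, though TMZ replicate 1 and Anti-PD-1 replicate 2 nearly met, and the difference was 0.23 ± 0.12 (interval -0.04 to 0.49). The Control mean was 8.00, above both. Psrc1, a spindle gene under p53, had 6.01, 6.00 and 5.99 in TMZ arrays against 6.19, 6.18 and 6.14 in Anti-PD-1 arrays (-0.17 ± 0.07, interval -0.32 to -0.03).

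Proliferation genes lay close together under both drugs. Mitosis genes had 24 of 46 members above 0 (52.2%) and a median of 0.00, and all 46 intervals lay within 1 log2 unit of 0. Their scores were -0.09, -0.21 and -0.17 in TMZ arrays against -0.18, -0.16 and -0.17 in Anti-PD-1 arrays, and 0.56, 0.65 and 0.16 in Control arrays. Mki67, the Ki-67 proliferation antigen gene, had 5.86, 5.19 and 5.41 in TMZ arrays against 5.24, 5.43 and 5.47 in Anti-PD-1 arrays (0.11 ± 0.20, interval -0.33 to 0.55). Top2a, a topoisomerase of dividing cells, had the largest difference of the list, at 0.27 ± 0.27 (interval -0.33 to 0.87).

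DNA replication and G1/S genes had 25 of 37 members above 0 (67.6%) and a median of 0.03. The primase subunit gene Prim2 (0.22 ± 0.09) and E2f2 (0.35 ± 0.14) had unadjusted p-values under 0.05 with TMZ higher, and Dtl (-0.37 ± 0.14), an adaptor that marks replication proteins for destruction, with TMZ lower. Dtl had 3.24, 3.25 and 3.35 in TMZ arrays against 3.66, 3.61 and 3.68 in Anti-PD-1 arrays, and its Control mean was 4.28. Cell death genes had a median of 0.05. Casp8, the initiator caspase of death receptors, had 6.11, 5.98 and 5.71 in TMZ arrays against 5.51, 5.52 and 5.76 in Anti-PD-1 arrays (0.34 ± 0.15, interval 0.01 to 0.67). Mcl1, a survival factor, had 7.68, 7.65 and 7.64 in TMZ arrays against 7.49, 7.51 and 7.50 in Anti-PD-1 arrays, tight on both sides (0.16 ± 0.08). Zbp1, a nucleic acid sensor that is itself interferon-inducible, had a difference of 0.57 ± 0.33. It was 0.26 without TMZ replicate 1 and 0.76 without TMZ replicate 2. Pycard, the inflammasome adaptor, had a difference of -0.25 ± 0.11, which was -0.36 and -0.09 without these arrays.

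Immediate early and MAPK feedback genes, which respond within minutes to growth factors and neuronal activity, were the 1 list of 37 whose scores did not overlap. Single genes lay wholly above in 4.38% and wholly below in 4.39%, so 1 list of 37 is no more than those shares. The scores were -0.05, 0.05 and -0.05 in TMZ arrays against -0.11, -0.06 and -0.15 in Anti-PD-1 arrays, so TMZ replicates 1 and 3 nearly met Anti-PD-1 replicate 2. Of 33 members 26 lay above 0 (78.8%), with a median of 0.09. Nr4a1, an immediate early nuclear receptor, had 8.15, 8.52 and 8.42 in TMZ arrays against 7.91, 8.18 and 7.89 in Anti-PD-1 arrays (0.37 ± 0.12, interval 0.10 to 0.64). Of the members 3 of 33 lay wholly above, against 4.38% of all genes, among them Atf3 (0.25 ± 0.13) and Junb (0.17 ± 0.11). Ier3 had 6.51, 7.63 and 6.66 in TMZ arrays against 6.44, 6.56 and 6.47 in Anti-PD-1 arrays, a difference of 0.44 ± 0.22 that was 0.09 without TMZ replicate 2.

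Stress lists lay near 0. Hypoxia and glycolysis genes had a median of 0.02, and Adm, the vasodilator peptide adrenomedullin, had 4.70, 5.25 and 5.06 in TMZ arrays against 4.36, 4.84 and 4.48 in Anti-PD-1 arrays (0.45 ± 0.17, interval 0.07 to 0.82). Unfolded protein and heat shock genes had a median of 0.03. The co-chaperone gene Bag3 had 6.87, 6.73 and 6.65 in TMZ arrays against 6.49, 6.45 and 6.49 in Anti-PD-1 arrays, with no overlap (0.27 ± 0.08, interval 0.10 to 0.45). Cholesterol biosynthesis genes had a median of -0.04.

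Brain and vessel lists were read as well, and where in the samples their transcripts arose was not tested. Neuron markers had 7 of 22 members above 0 (31.8%) and a median of -0.04. Of them 2 lay wholly below in TMZ arrays, against 4.39% of all genes, among them Thy1 (-0.08 ± 0.05). The glutamate receptor gene Grin2b was at -0.10 ± 0.08. Oligodendrocyte markers had 4 of 18 above 0 (22.2%) and a median of -0.06, which was -0.14 without TMZ replicate 1 and -0.02 without TMZ replicate 2 or replicate 3. Opalin, a myelin glycoprotein gene, had 7.27, 6.97 and 7.05 in TMZ arrays against 7.30, 7.31 and 7.34 in Anti-PD-1 arrays (-0.22 ± 0.08). Astrocyte markers had 14 of 19 above 0 and a median of 0.03. Sox9, a glial transcription factor (0.18 ± 0.06), and Aldh1l1 (0.21 ± 0.09) lay higher in TMZ arrays without overlap. They were 2 of 19 members, against 4.38% of all genes wholly above. Another 5 members lay below 0, the lowest being S100b at -0.13, and the list scores of the groups overlapped.

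Choroid plexus and ependyma markers had 13 of 14 members above 0 (92.9%) and a median of 0.13, which was 0.07 without TMZ replicate 1 and 0.20 without TMZ replicate 3. Their scores were 0.22, 0.06 and -0.09 in TMZ arrays against -0.06, -0.06 and -0.06 in Anti-PD-1 arrays. Kl, the klotho gene of choroid plexus, had 7.78, 7.37 and 7.34 in TMZ arrays against 7.15, 7.30 and 7.20 in Anti-PD-1 arrays (0.28 ± 0.13). It and the cilium genes Tekt1 (0.17 ± 0.08) and Rsph1 (0.19 ± 0.10) did not overlap. They were 3 of 14 members, against 4.38% of all genes wholly above. The 1 member below 0 was Aqp1, at -0.10. TMZ replicate 1 had the highest list score of the 6 arrays and TMZ replicate 3 the lowest.

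Endothelial markers had 18 of 23 members above 0 (78.3%) and a median of 0.10, which was -0.01 without TMZ replicate 2. That array had a score of 0.29, above the 11 others. Vwf, the clotting factor stored in endothelium, had 6.01, 7.28 and 6.09 in TMZ arrays against 5.87, 5.91 and 6.09 in Anti-PD-1 arrays (0.51 ± 0.26, and 0.10 without that array). Cldn5, a tight junction gene, was at 0.24 ± 0.15. Of 23 members 3 lay wholly above, against 4.38% of all genes, among them the barrier genes Mfsd2a (0.20 ± 0.10) and Bsg (0.12 ± 0.06). The differences of Cldn5, Mfsd2a and Bsg include TMZ replicate 2. Another 5 members lay below 0, the lowest being Ly6c1 at -0.14. Pericyte and collagen genes had a median of 0.03, with Col6a3 at -0.15 ± 0.06.

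Glioma and neural progenitor genes had 13 of 23 members above 0 and a median of 0.03. Nes, the intermediate filament nestin of progenitors and glioma cells, had 5.78, 5.50 and 5.53 in TMZ arrays against 5.40, 5.38 and 5.35 in Anti-PD-1 arrays (0.22 ± 0.10, interval 0.01 to 0.44). Moxd1, a monooxygenase gene related to dopamine beta-hydroxylase, had 6.51, 5.79 and 5.73 in TMZ arrays against 5.70, 6.19 and 6.10 in Anti-PD-1 arrays, a difference of 0.01 ± 0.34 (interval -0.73 to 0.75), while Control arrays averaged 8.78. All 6 arrays of the single agents were below the Control mean.

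By lack of overlap and a difference of at least 0.5 log2, 12 genes with TMZ higher and 8 with TMZ lower were named, among them the interferon genes above, and all missed the threshold. Wfikkn2, a secreted inhibitor of myostatin and GDF11, had the smallest p among them: 4.47, 4.36 and 4.40 in TMZ arrays against 5.08, 5.10 and 4.86 in Anti-PD-1 arrays. Both groups were tight and well apart, and the difference was -0.60 ± 0.10 (interval -0.83 to -0.37; limma adjusted p 1.0). It stayed between -0.68 and -0.56 with any 1 array left out. Combination and Control arrays averaged 4.80 and 4.56, between the drugs.

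With TMZ higher, Btbd35f17, of a large family of BTB domain genes, had 5.17, 5.37 and 5.30 in TMZ arrays against 4.78, 4.58 and 4.93 in Anti-PD-1 arrays (0.52 ± 0.11). Tcstv3, of a family first transcribed in early embryos, had a difference of 0.57 ± 0.17, and the trypsinogen gene Prss3 one of 0.53 ± 0.19. Families of close copies share sequence, so probe sets for 1 member may read others. Acer2, a Golgi ceramidase, had 5.75, 6.77 and 5.92 in TMZ arrays against 5.58, 5.67 and 5.63 in Anti-PD-1 arrays, and Tent5c, a noncanonical poly(A) polymerase, had 5.06, 6.37 and 4.95 in TMZ arrays against 4.74, 4.78 and 4.87 in Anti-PD-1 arrays. Both were carried by TMZ replicate 2: the differences of 0.52 and 0.67 were 0.21 for both without it.

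With TMZ lower, the antisense transcript gene Nrg3os was at -0.51 ± 0.12, Dppa1, named for expression in pluripotent cells, at -0.54 ± 0.14, and Pate5, of a family of testis and prostate proteins, at -0.60 ± 0.16. The pseudogene Gpx2-ps1 (-0.60 ± 0.20), the cytochrome P450 gene Cyp2c38 (-0.55 ± 0.20) and the F-box gene Fbxw19 (-0.58 ± 0.22) made up the rest beside Cxcr6 and Wfikkn2. Signal was very low for some of them: Cyp2c38 and Fbxw19 averaged 2.49 and 2.62 over the 12 arrays, against 4.69 for Wfikkn2. Fbxw19 had 2.20, 2.37 and 2.23 in TMZ arrays against 2.52, 2.58 and 3.45 in Anti-PD-1 arrays.

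MicroRNA gene probe sets, which read the gene or its hairpin and not a mature strand alone, had 32 of 483 members wholly below in TMZ arrays (6.63%, against 4.39% of all genes) and 12 wholly above (2.48%, against 4.38%), with a median difference of -0.03. The smallest p of all genes belonged to Mir467f, chosen after its value was seen, as was Mirlet7f-1 of the let-7 family. The mature sequences from RefSeq (GRCm38.p6) are printed with bases 2 to 8, the seed that pairs with targets, in capitals, with both strands of the let-7 hairpin because the probe set does not tell which one was read.
mmu-miR-467f, chr11:69635419-69635439, minus strand: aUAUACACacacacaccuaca
mmu-let-7f-5p, chr13:48537889-48537910, minus strand: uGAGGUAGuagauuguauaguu
mmu-let-7f-1-3p, chr13:48537833-48537854, minus strand: cUAUACAAucuauugccuuccc
Mir467f had 3.16, 3.34 and 3.23 in TMZ arrays against 3.80, 3.91 and 4.18 in Anti-PD-1 arrays (-0.72 ± 0.12, interval -0.99 to -0.45). Combination arrays averaged 3.68 and Control arrays 3.59, so the 2 drugs lay on either side of them. Mirlet7f-1 had 2.999, 2.75 and 3.01 in TMZ arrays against 3.61, 3.57 and 3.56 in Anti-PD-1 arrays (-0.66 ± 0.17), with Combination and Control arrays at 2.93 and 2.62. The limma adjusted p of both was 1.0.

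The 3 largest differences of all belonged to pituitary hormone genes and came from 1 array. Gh, Prl and Pomc encode growth hormone, prolactin and the precursor of ACTH, made in the pituitary gland below the brain. Gh had 5.53, 10.57 and 5.83 in TMZ arrays against 5.31, 5.18 and 5.46 in Anti-PD-1 arrays. Prl had 4.61, 8.83 and 4.54 in TMZ arrays against 3.67, 4.40 and 4.05 in Anti-PD-1 arrays, and Pomc had 5.04, 9.30 and 5.17 in TMZ arrays against 4.75, 4.94 and 4.60 in Anti-PD-1 arrays. Of these 6 arrays only TMZ replicate 2 was bright. In the other groups, Combination replicate 1 had 8.62 for Gh and 6.62 for Prl, and Control replicates 2 and 3 had 7.03 and 6.82 for Gh. The differences of 1.99 ± 1.197, 1.95 ± 0.96 and 1.74 ± 0.85 were 0.36, 0.54 and 0.34 without TMZ replicate 2. The other pituitary hormone genes, chosen after these values were seen, lay apart less or not at all on that array: Cga, the shared subunit, was at 4.15, 5.33 and 4.46 in TMZ arrays against 4.89, 4.48 and 4.41 in Anti-PD-1 arrays, whereas Lhb, Fshb and Tshb were at 5.36, 4.11 and 3.84 on it against 5.38, 4.21 and 3.78 on TMZ replicate 1.

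The same array was bright for Vwf, above, and for some but not all blood cell genes. Slc4a1, the red cell anion exchanger, had 4.68, 5.97 and 4.39 in TMZ arrays against 4.90, 4.33 and 4.87 in Anti-PD-1 arrays, and Ppbp, a platelet chemokine, had 4.37, 5.39 and 4.38 in TMZ arrays against 3.96, 3.89 and 4.41 in Anti-PD-1 arrays. Pf4, the other platelet gene of the list, was not bright on it, at 4.35, 4.21 and 4.15 in TMZ arrays against 4.42, 4.31 and 4.22 in Anti-PD-1 arrays. Lcn2, of neutrophils and reactive astrocytes, had 5.50, 6.95 and 4.95 in TMZ arrays against 4.86, 5.01 and 6.03 in Anti-PD-1 arrays, and Apol11b had 2.94, 6.65 and 3.80 in TMZ arrays against 2.96, 3.48 and 3.24 in Anti-PD-1 arrays. The blood cell list, with 5 members measured, had a median of 0.22, which was 0.03 without TMZ replicate 2. Epb42, a red cell membrane gene, was the 1 of 5 members without overlap (0.22 ± 0.11), against 4.38% of all genes wholly above.

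Other regional genes, again chosen after their values were seen, sorted by array. Tph2, of serotonin synthesis in the brainstem raphe, had 5.06, 6.19 and 4.21 in TMZ arrays against 4.71, 6.13 and 6.09 in Anti-PD-1 arrays. Slc6a4, the serotonin transporter of the same neurons, had 5.35, 6.02 and 4.36 in TMZ arrays against 4.54, 5.79 and 6.39 in Anti-PD-1 arrays. TMZ replicate 2 and Anti-PD-1 replicates 2 and 3 were high for both. Avp and Oxt, the vasopressin and oxytocin genes of the hypothalamus, had differences of 0.36 ± 0.13 and 0.37 ± 0.17. Avp had 8.93, 9.26 and 8.82 in TMZ arrays against 8.64, 8.70 and 8.58 in Anti-PD-1 arrays, with no overlap.

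A pair of antibody-related genes was bright on Anti-PD-1 replicate 3. Igkj1, a light chain segment chosen after its values were seen, had 4.35, 4.18 and 4.82 in TMZ arrays against 4.24, 4.38 and 6.38 in Anti-PD-1 arrays, and Jchain, which links secreted antibody, had 3.30, 2.92 and 2.98 in TMZ arrays against 2.997, 3.30 and 4.14 in Anti-PD-1 arrays. Without Anti-PD-1 replicate 3 their differences, -0.55 ± 0.44 and -0.41 ± 0.24, were 0.14 and -0.08. The B cell and plasma cell list scores of that array were -0.01 and 0.08. The part of these tissue and blood genes in the other differences of the same arrays was not tested.

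**Figure D5:**
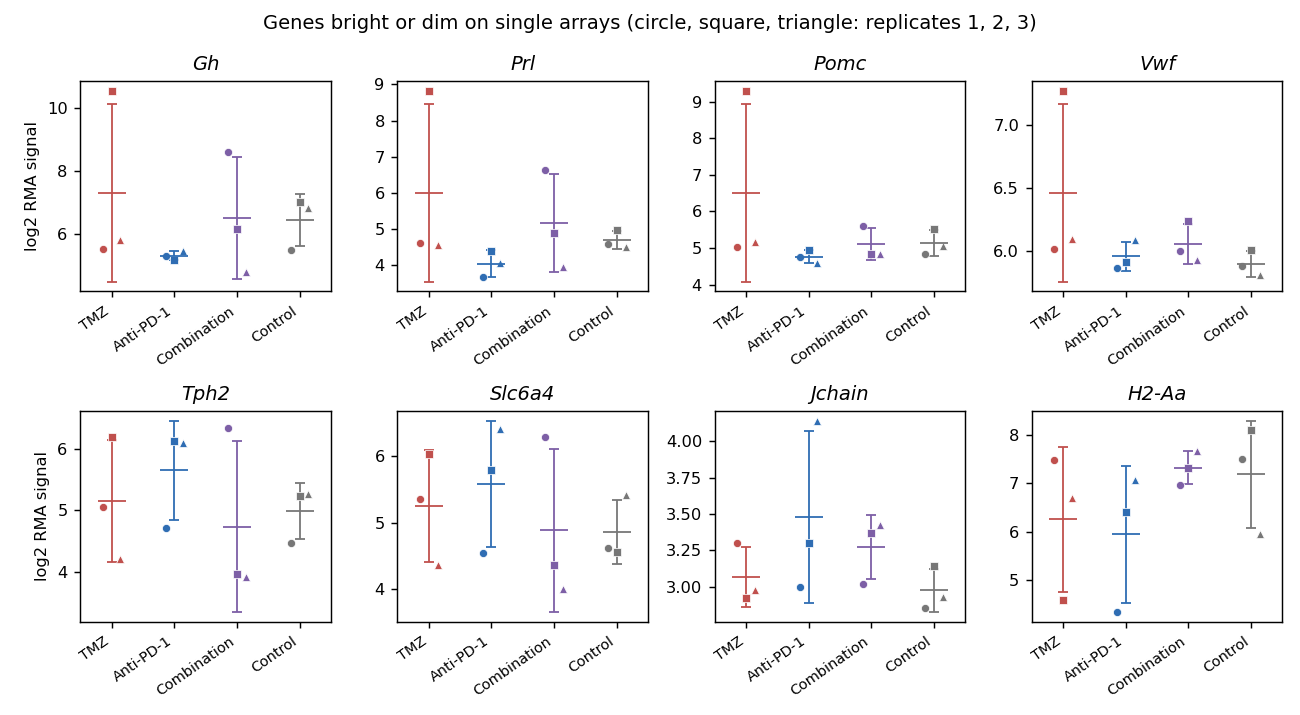
Log2 signal of 8 genes that were bright or dim on single arrays, by group, with mean and SD of 3 arrays as bars and replicates as symbols. TMZ replicate 2 (square) is bright for Gh, Prl, Pomc and Vwf and dim for H2-Aa. Combination replicate 1 (circle) is bright for Gh, Prl and Tph2, and Anti-PD-1 replicate 3 (triangle) is bright for Jchain. Control replicates 2 and 3 also lie above all Anti-PD-1 arrays for Gh.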

How the data were processed

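Total RNA of 12 tumour samples was measured on Affymetrix whole-transcript arrays, 3 per group. The deposited values are log2 RMA signals that the authors made in Affymetrix Expression Console, per the submitters' processing notes; no version is given in the sources used here. RMA subtracts background, gives all arrays 1 distribution of signal and combines the probes of a set. The deposited table held 41345 probe sets between 1.24 and 13.14 log2, with 0 missing; arrays have no read depth, and 3 per group limits precision.

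The platform annotation named 1 symbol for 23521 probe sets, several for 1814 and none for 16010; 23328 matched RefSeq by gene number, changing 0 symbols. The brightest probe set was kept for 1082 genes with several, leaving 22180 genes, with no filter.

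Genes were fitted with limma 3.58.1 (R 4.3.3): a mean per group over all 12 arrays (8 residual degrees of freedom), the contrast TMZ minus Anti-PD-1, eBayes, two-sided p, Benjamini-Hochberg over all genes, threshold 0.05. Intervals (95%) are 2.19 times the SE, from limma. The code was tested on simulated data. Figures used Python 3.11.15 and matplotlib 3.10.9.

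Named genes were, per direction, up to 12 with no overlap and a difference of at least 0.5, by smallest p (predicted, receptor, immunoglobulin and small RNA genes aside), up to 4 members of each list with the smallest p and its extremes, and a fixed set (Mgmt, Pdcd1, Bst2, Cd274, Gbp3, Cd8a, Gpnmb, Ifng, Moxd1, Gzmb, P2ry12, Foxp3, Mki67, Cdkn1a); others are said to be chosen after their values were seen, and list members named for lack of overlap (Ifit2, Psmb10, Psme1, F13a1, Mertk) were too. The comparison, the 37 lists (885 entries, 800 measured) and the fixed set were chosen with earlier results of these data known, so lists carry counts and medians and no p. Alternatives changed the arrays in the fit, variance prior, weights, probe sets, dim genes, centring, replicate block, neuron score covariate and each array left out.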

Additional observations from a re-analysis of the deposited data

How the results depend on the processing

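In 22 alternatives limma called 0 genes each time, with a smallest adjusted p of 0.269 in any of them. The count of genes with an unadjusted p under 0.05, 1000 in the fit reported, was 953 with only the 6 arrays compared, 931 with a variance trend, 978 with a robust prior, 1005 with array weights or median centring, 1010 with probe sets averaged, 1006 with the replicate block, 944 with the neuron covariate and 947 to 1287 with 1 array left out. It was 405 of 11090 among genes above the median gene (3.65%) and 1871 of 41345 over all probe sets (4.53%), where the number tested differed.

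Of 2681 comparisons of 125 named genes with an alternative, 41 changed sign. Arrays left out gave ranges of -0.13 to 0.19 for Pdcd1, -0.056 to 0.10 for Ifng, -0.20 to 0.082 for Gzmb, -0.13 to 0.0078 for Mgmt, -0.078 to 0.26 for Mki67, -0.16 to 0.016 for P2ry12, -0.24 to 0.15 for Moxd1, -0.49 to 1.15 for H2-Aa, -0.19 to 1.29 for H2-Ab1, -0.17 to 0.62 for Slc4a1, -0.075 to 0.92 for Lcn2, -0.85 to 0.11 for Slc6a4, -0.93 to 0.14 for Igkj1, -0.29 to 0.30 for Cga, -0.050 to 0.087 for Fshb and -0.11 to 0.045 for Tshb. The neuron covariate gave -0.052 for Mki67, -0.30 for Moxd1, -0.0011 for H2-Aa, -0.013 for Psmb10, -0.0083 for Top2a, 0.13 for Slc6a4 and 0.048 for Tshb. Array weights gave -0.00066 for Ifng, -0.040 for Moxd1 and 0.023 for Fshb, and median centring -0.00061 for Pdcd1. The cause was not tested. Of 776 list medians 21 moved by at least 1 SD of the list's scores within groups. Replicate numbers did not pair the arrays (deviations of same-numbered TMZ and Anti-PD-1 arrays correlated at -0.128, -0.00923 and -0.0796). With 3 arrays per group, 94 genes had intervals reaching past a 2-fold difference.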
